A study of Mus musculus with 14 samples.

Results

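The 9 genes described here, Malat1, Neat1, Meg3, Rian, Mirg, Miat, Snhg11, Snhg14 and Kcnq1ot1, are long noncoding RNA genes whose transcripts are known from other work to stay mainly in the nucleus. They were chosen by name and not by a rule on their values, but with earlier results of these data known. They are 9 of the 55421 mouse genes in the count table. Where a transcript sits in the cell was not measured in these data. In GENCODE release M21 Malat1, Neat1, Meg3, Mirg and Miat are classed as long intergenic noncoding RNAs, Rian and Snhg14 as processed transcripts and Kcnq1ot1 as antisense, while Snhg11 is classed as protein-coding.

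Most messenger RNAs are spliced, exported and bound by ribosomes in the cytoplasm, whereas these transcripts act, or are processed, in the nucleus. Malat1 gathers in nuclear speckles, bodies that hold splicing factors, and Neat1 is the scaffold of paraspeckles. Meg3, Rian and Mirg are made from the maternal copy of the imprinted Dlk1-Dio3 domain, Snhg14 from the paternal copy of the Prader-Willi and Angelman domain and Kcnq1ot1 from the paternal copy of the Kcnq1 domain. Rian, Snhg14 and Snhg11 are hosts of small nucleolar RNAs (snoRNAs), Mirg is a host of microRNAs, and Miat, also called Gomafu, is abundant in neurons.

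The study compared RNA from the brainstem of 7 mice that received mutant human tau or a control protein in the locus coeruleus, the small brainstem nucleus that supplies noradrenaline to the forebrain. All mice carried TH-Cre, a Cre recombinase driven by the tyrosine hydroxylase promoter, and Slc6a2-eGFP/Rpl10a, a ribosomal protein L10a joined to green fluorescent protein under control of the noradrenaline transporter gene, on a C57Bl/6 background. The infusions were made at 2 to 3 months of age: 4 mice, here named by their letters B, C, L and M, received P364S mutant human tau, and 3 mice, H, I and K, received EYFP, a yellow fluorescent protein, as control. From every mouse came an immunoprecipitate (IP), in which RNA was recovered with the tagged ribosomes of noradrenergic cells, and the total homogenate taken before it (pre-IP), so there were 4 tau IP, 3 EYFP IP, 4 tau pre-IP and 3 EYFP pre-IP libraries of polyadenylated RNA. Both fractions of an animal share that animal, and tau and EYFP are carried by different animals.

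Total counts ran from 41843489 to 65664551 per library, and 3 counts, the limit that a count of 0 allows, correspond to 0.0457 to 0.0717 CPM, counts scaled to a library total of 1000000. Such limits cover counting error only. Every member was above this limit in every library, with 79 counts or more. The markers of noradrenergic neurons were present: all 12 listed genes were higher in IP than in pre-IP (edgeR adjusted p under 0.05, median log2 fold change 2.33), among them Dbh, which encodes dopamine beta-hydroxylase, at 4.24 (SE 0.92, edgeR adjusted p 0.00259). The IP of the tau animals held more of these markers than that of the EYFP animals, with a summed level from 1070 to 7168 CPM against 564 to 642 CPM. In the EYFP animals alone Dbh had a log2 fold change of 1.347 and did not pass (edgeR adjusted p 0.06769). The mean log2 ratio of IP over pre-IP for these markers was 0.684, 0.947 and 0.686 in EYFP animals H, I and K. In tau animals B, C, L and M this mean was 4.439, 3.557, 3.518 and 1.742. Markers of other cell types were present in every group, with none at 0 throughout. Several libraries stood apart. The IP of tau animal B had the lowest RNA concentration, 0.1 ng per microlitre against 0.2 to 2.8 in the other IPs, and the fewest genes with a count, 20813 against 23632 or more. The pre-IP libraries had 11.4 to 29.9 ng per microlitre, above every IP. The IP of EYFP animal I had an RNA integrity number of 4.2, against 7.7 to 9.0 elsewhere. Both libraries of EYFP animal K held 408 and 398 counts of the human tau construct, where the other EYFP libraries held 2 to 18, and animal M, labelled female, had 674 and 1153 counts from 4 Y-linked genes. Leaving out I, K or M in turn changed the call of no member.

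The level of each member was first compared within libraries, as CPM per kilobase of its merged exons, since longer transcripts collect more reads. In pre-IP Snhg11 was first of the 9 in 7 of 7 libraries, with a median of 30.2 CPM per kilobase, followed by Malat1 (14.5) and Meg3 (9.50), whose ranges over libraries overlapped. Neat1 (6.43) had place 4 of 9 in every pre-IP library. Rian (3.22) and Miat (2.71) exchanged places between libraries, as did Mirg (0.303) and Snhg14 (0.280), and Kcnq1ot1, whose annotated exon is 93092 bases long, was last in all of them (0.0357). In IP the order changed at the top: Malat1 was first of the 9 in 7 of 7 libraries (median 54.2), before Snhg11 (25.03), Meg3 (18.2) and Neat1 (7.21). Below these came Miat (2.34), Rian (1.96), Mirg (0.698) and Snhg14 (0.566), each overlapping its neighbour in this order, and Kcnq1ot1 was again last (0.0518). Together the 9 genes took 0.0681% to 0.152% of the counts of a pre-IP library and 0.0940% to 0.172% of an IP library, except in the IP of animal B, where they took 0.0401%.

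**Figure D1:**
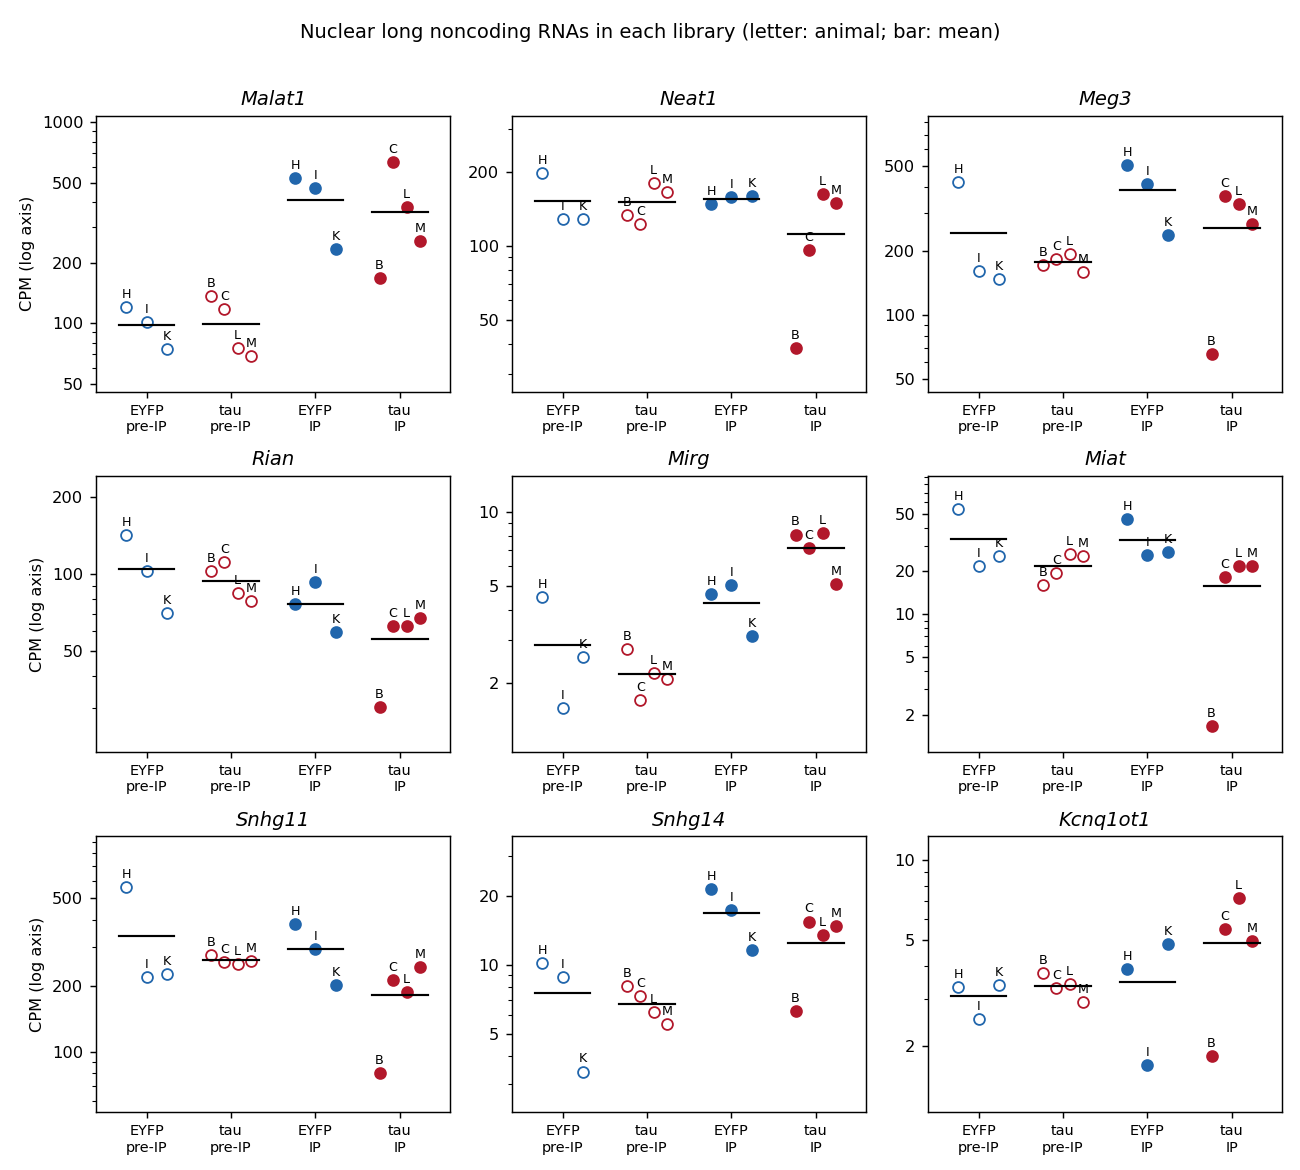
CPM of the 9 nuclear long noncoding RNAs in the 14 libraries, on a log axis with its own range in each panel. Letters name the animals, open circles are pre-IP, filled circles are IP, blue is EYFP, red is tau and bars are group means. Malat1 is higher in all 7 IP libraries than in any pre-IP library, and the IP of animal B is the lowest tau IP library for every gene except Mirg.

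IP was then compared with pre-IP over all 14 libraries, which asks how the level of each transcript in the IP differs from that in the homogenate. Of the 9 members, 4 passed the threshold (edgeR adjusted p under 0.05 over 18792 genes), against 31.0% of all genes tested: Malat1, Mirg and Snhg14 rose and Rian fell. Over all genes, 16.3% were called higher and 14.7% lower. In the fit limited to the 15221 genes with a mean of at least 50 counts, 4 of the 9 members and 39.1% of all genes were called. Meg3, Kcnq1ot1, Neat1, Snhg11 and Miat did not pass. The median log2 fold change of the members was 0.42, beside -0.00 over all genes tested, and single members ran from -0.58 to 1.98. In bulk tissue, fewer cells of a type and less RNA per cell cannot be told apart. The source of a higher level in IP, binding to the tagged ribosomes included, was not tested. All IP libraries also had a lower RNA concentration than all pre-IP libraries, so fraction and RNA concentration cannot be told apart here.

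Malat1 (ENSMUSG00000092341.3, GRCm38 chr19:5795690-5802672, minus strand, 1 exon of 6983 bases) changed most. In the IP libraries it had a lowest, median and highest level of 168, 379 and 631 CPM, and in the pre-IP libraries of 68.5, 101 and 136 CPM. The IP libraries were thus all above the pre-IP libraries, without overlap, which holds for 3.69% of all genes tested and for no other member. In either direction the fractions did not overlap for 9.46% of all genes tested. The log2 fold change was 1.98 (SE 0.25, edgeR adjusted p 7.54e-05), which is 3.95-fold. It passed in the tau animals alone (1.90, SE 0.36, edgeR adjusted p 0.00824, where 20.7% of all genes were called) and in the EYFP animals alone (2.06, SE 0.27, edgeR adjusted p 0.00688). In each of the 6 animals other than B, Malat1 had a higher IP over pre-IP ratio than 98.3% to 99.6% of the genes tested, and in animal B than 75.1%.

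The sequence at the 3′ end of Malat1 is shown because the mature transcript is known to end in a folded structure and not in a poly(A) tail, while these libraries were made from polyadenylated RNA. In the first line below, at chr19:5795917-5796071 on the minus strand, capitals mark a pair of U-rich stretches and the run of A in the A-rich tract. The U-rich stretches and the A-rich tract are known to pair in a triple helix. The small cytoplasmic RNA that is cut off the nascent transcript starts a few bases further on, not directly after the capitals. In the second line, the last 40 bases of the annotated exon at chr19:5795690-5795729, capitals mark AATAAA, a polyadenylation signal.
Malat1 3′ stretch: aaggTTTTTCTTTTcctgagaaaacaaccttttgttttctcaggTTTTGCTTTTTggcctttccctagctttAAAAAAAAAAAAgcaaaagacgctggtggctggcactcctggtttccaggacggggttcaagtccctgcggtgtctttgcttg
Malat1 last bases: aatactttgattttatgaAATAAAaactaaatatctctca
Both U-rich stretches, in the letters of the first and second run of capitals and searched on the transcript strand, occur together in 0.639% of the 7040 GENCODE M21 transcripts of 5000 bases or more, and none of the Neat1 transcripts of that length holds both in these letters. The 0.639% includes the Malat1 transcript itself. AATAAA lies in the last 40 bases of 25.8% of all annotated transcripts. These matches describe the sequence only.

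Neat1 (ENSMUSG00000092274.3, chr19:5824708-5845478, minus strand, 1 exon of 20771 bases) lies 22035 bases from Malat1 and did not move with it. Its lowest, median and highest level was 38.3, 150 and 164 CPM in IP and 123, 134 and 199 CPM in pre-IP, so the fractions overlapped. The log2 fold change was -0.20 (SE 0.22, edgeR adjusted p 0.520). In the EYFP animals alone it was 0.04 (edgeR adjusted p 0.926), so its sign depended on the animals used, and without animal B it was -0.06 (SE 0.14, edgeR adjusted p 0.775). Within each of the 7 animals Malat1 gained on Neat1 from pre-IP to IP, by 1.34 to 2.78 on the log2 scale with a mean of 2.18 ± 0.48 (SD, n = 7 animals).

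Meg3, Rian and Mirg follow each other on the plus strand of chromosome 12, with 32081 bases between Meg3 and Rian and 68047 between Rian and Mirg, and they did not change alike. Mirg (ENSMUSG00000097391.8, chr12:109729764-109749460, 14 merged exons) had a lowest, median and highest level of 3.11, 5.09 and 8.21 CPM in IP and 1.58, 2.21 and 4.49 CPM in pre-IP. It was raised in 7 of 7 animals, as were 10.8% of all genes tested, and rose by 1.28 (SE 0.27, edgeR adjusted p 0.00220). Rian (ENSMUSG00000097451.11, chr12:109603808-109661716, 16 merged exons) had 30.4, 62.8 and 93.3 CPM in IP and 70.2, 103 and 142 CPM in pre-IP. It was lower in IP in 7 of 7 animals, as were 16.5% of all genes tested, with a fitted log2 change of -0.58 (SE 0.16, edgeR adjusted p 0.0119). Neither Mirg nor Rian passed in the 3 EYFP animals alone, where Mirg had 0.58 (SE 0.35, edgeR adjusted p 0.369) and Rian -0.45 (SE 0.23, edgeR adjusted p 0.270), and where 6.38% of all genes were called.

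Meg3 (ENSMUSG00000021268.17, chr12:109541001-109571726, 8 merged exons), a transcript of several kilobases that is abundant in neurons, had a lowest, median and highest level of 65.7, 330 and 503 CPM in IP and 147, 172 and 419 CPM in pre-IP. It was higher in IP in 6 of 7 animals, B being the exception, and its log2 fold change of 0.63 (SE 0.28) did not pass (edgeR adjusted p 0.103). Without animal B it passed, at 0.78 (SE 0.22, edgeR adjusted p 0.0146, with 31.4% of all genes called), as it did with limma voom over all animals (0.69, adjusted p 0.0262, with 33.3% called), and without both B and I it did not (0.68, SE 0.24, edgeR adjusted p 0.0528, with 28.1% called). The Meg3 to Rian ratio was higher in IP in 7 of 7 animals, by 0.38 to 1.82 on the log2 scale with a mean of 1.13 ± 0.46 (SD, n = 7 animals). The Mirg to Rian ratio was also higher in 7 of 7, by 0.52 to 3.31. The protein-coding genes of the domain that could be tested, Dlk1, a membrane protein related to the Notch ligands, and Rtl1, a gene derived from a retrotransposon, rose by 1.08 (SE 0.34, edgeR adjusted p 0.0231) and 0.99 (SE 0.23, edgeR adjusted p 0.00430).

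Each of the 3 transcripts of the domain spans microRNA hairpins in RefSeq (GRCm38). Counted were 1 in Meg3 (Mir770), 3 in Rian and 14 in Mirg. This count leaves out the hairpin of miR-1906, a mature microRNA that lies within Meg3 at chr12:109544588-109544609. Reads in the 367 exonic bases that Mirg shares with other annotated genes on its strand cannot be told apart from theirs. The microRNAs themselves are too short to be measured here. A pair of mature microRNAs within Mirg had the same seed, the bases 2 to 8 that pair with a target, which are in capitals below, and no other seed was shared among the mature microRNAs of the 3 genes.
mmu-miR-453: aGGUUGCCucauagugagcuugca
mmu-miR-496a-5p: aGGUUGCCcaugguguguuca
The first lies at chr12:109735669-109735692 and the second at chr12:109739132-109739152, both on the plus strand. For comparison, miR-134-5p, at chr12:109734145-109734166 and known from work on dendrites of neurons, has a different seed.
mmu-miR-134-5p: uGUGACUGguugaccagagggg

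Snhg14 (ENSMUSG00000100826.6, chr7:59307924-59975759, minus strand, 65 merged exons over 667836 bases) carries snoRNAs and runs antisense through Ube3a, whose paternal copy it keeps silent in neurons. Its lowest, median and highest level was 6.30, 14.8 and 21.5 CPM in IP and 3.41, 7.31 and 10.2 CPM in pre-IP. It was higher in IP in every animal except B and rose by 1.05 (SE 0.22, edgeR adjusted p 0.00224). In the EYFP animals alone its fold change was of like size, 1.18, and did not pass (SE 0.34, edgeR adjusted p 0.0652). Ube3a, the ubiquitin ligase on the other strand, rose as well, by 1.19 (SE 0.15, edgeR adjusted p 7.1e-05), from a mean of 20.96 CPM in pre-IP to 46.5 CPM in IP. Exons of both genes share 1803 bases of the 26093 exonic bases of Snhg14, and whether the counting used strand is not given in the sources used here, so reads in that stretch cannot be assigned to either gene. Of the 6 tested protein-coding genes of the domain, Ube3a and Ndn rose, Atp10a fell (-1.36, SE 0.36, edgeR adjusted p 0.00914), and Snrpn, Magel2 and Mkrn3 did not pass.

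Miat (ENSMUSG00000097767.8, chr5:112213228-112229395, minus strand, 6 merged exons) is known for repeats of TACTAAC, the letters of the branch point that the splicing factor SF1 binds in introns. Of the 6 copies in its annotated transcript, 3 lie at chr5:112217313-112217456 and 3 at chr5:112216756-112216808, on the minus strand and in capitals below.
Miat upstream stretch: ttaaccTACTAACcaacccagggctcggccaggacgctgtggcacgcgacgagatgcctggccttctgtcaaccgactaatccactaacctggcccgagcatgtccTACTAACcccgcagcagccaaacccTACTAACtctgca
Miat downstream stretch: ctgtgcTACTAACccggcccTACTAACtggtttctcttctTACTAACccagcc
Among 1642 annotated transcripts of 8000 bases or more, 24.5% held at least 1 copy on the transcript strand and 3 (0.183%) held 6 or more. Miat itself is counted here: its longest annotated transcript, of 9163 bases, holds 6 copies and is among the 3. In IP Miat had a lowest, median and highest level of 1.66, 21.7 and 45.8 CPM and in pre-IP of 16.0, 25.2 and 53.7 CPM. The fractions overlapped and the log2 fold change was -0.25 (SE 0.36, edgeR adjusted p 0.642). Without animal B, whose IP held 93 Miat counts against 766 in its pre-IP, it was -0.09 (SE 0.20, edgeR adjusted p 0.764). Of the exonic bases of Miat, 24.3% are shared with the annotated gene Gm26953 on the other strand, which had a mean of 0.271 CPM. Sf1 itself fell by 0.44 in IP (SE 0.09, edgeR adjusted p 0.00132), from 113 to 137 CPM in the pre-IP libraries to 81.5 to 101 CPM in the IP libraries.

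Snhg11 (ENSMUSG00000044349.15, chr2:158375638-158386145, plus strand, 4 merged exons), a snoRNA host that is abundant in neurons, had a lowest, median and highest level of 80.3, 213 and 383 CPM in IP and 219, 257 and 563 CPM in pre-IP. It was lower in IP in 6 of 7 animals, as were 28.5% of all genes tested, and did not pass (-0.34, SE 0.22, edgeR adjusted p 0.258). Without animal B its log2 value was -0.20 (SE 0.20, edgeR adjusted p 0.479). Kcnq1ot1 (ENSMUSG00000101609.2, chr7:143203458-143296549, minus strand, 1 exon), which silences neighbouring genes on the chromosome it is made from, had 1.697, 4.83 and 7.20 CPM in IP and 2.53, 3.32 and 3.77 CPM in pre-IP. Its log2 fold change was 0.42 (SE 0.26, edgeR adjusted p 0.243). Without animal B it was 0.55 (SE 0.24, edgeR adjusted p 0.0931), and it passed when B and I were both left out, at 0.67 (SE 0.18, edgeR adjusted p 0.0130). It overlaps Kcnq1 on the other strand, with 121 exonic bases shared. Of 8 tested genes of the Kcnq1 domain, Osbpl5, a lipid transfer protein, fell by 0.76 (SE 0.10, edgeR adjusted p 8.7e-05) and the other 7 did not pass.

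**Figure D2:**
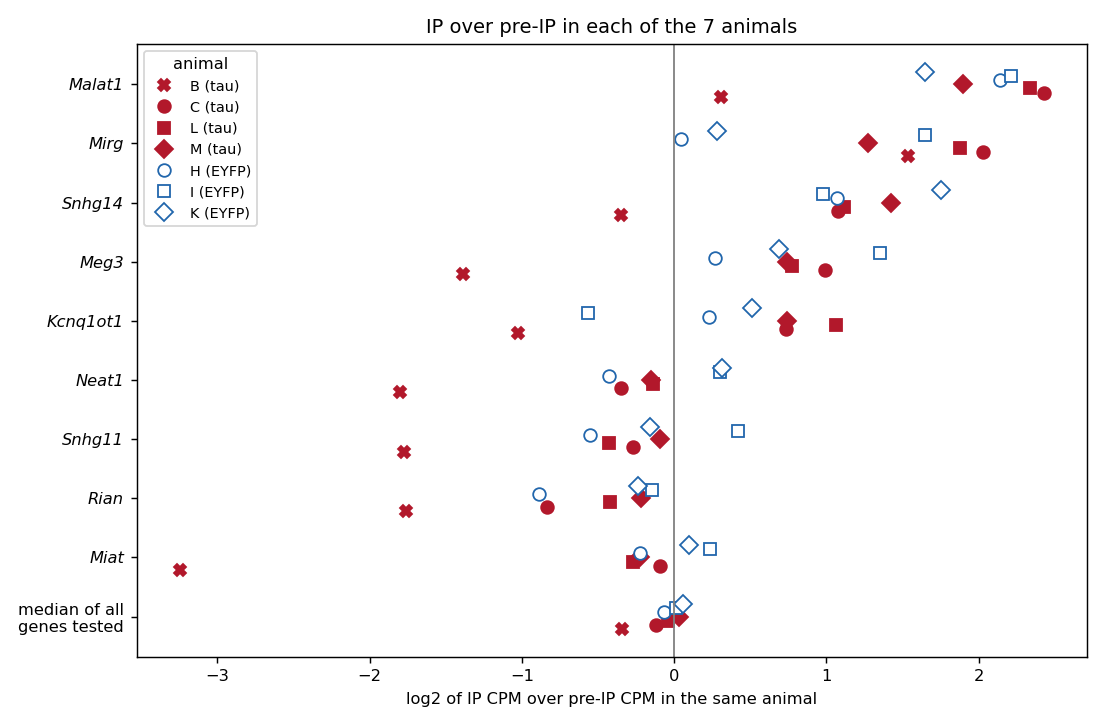
Log2 of IP CPM over pre-IP CPM within each animal, with a prior count of 2, for the 9 genes and, in the bottom row, the median of all 18792 genes tested. Red filled symbols are tau animals, blue open symbols EYFP animals and the cross is animal B, which lies furthest to the left for every gene except Mirg and has a median over all genes of -0.34.

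Animal B stood apart in the ratios within animals. Its ratio was the lowest of the 7 animals for 8 of the 9 members, Mirg being the exception. It was -3.25 for Miat, where the other animals ran from -0.27 to 0.24, and -1.80 for Neat1, where they ran from -0.43 to 0.31. For Meg3 it was -1.39 against 0.27 to 1.35, for Snhg14 -0.35 against 0.98 to 1.75, and for Malat1 0.31 against 1.65 to 2.43. For Mirg it was 1.54, within the range of the others, 0.05 to 2.03. The median over all genes tested was also lowest in B, -0.34 against -0.12 to 0.06. It differed with the total length of the merged exons of a gene. In B the median was 0.10 over protein-coding genes with under 2000 exonic bases and -0.49 over those with 5000 or more. In the other animals the former ran from 0.04 to 0.35 and the latter from -0.22 to 0.07. The median over genes with under 2000 exonic bases was the higher in every animal except I, so the direction was not particular to B. The animal also had the highest mean log2 ratio over the noradrenergic markers, 4.44 against 0.68 to 3.56, and the lowest over the markers of oligodendrocytes, -1.42 against -0.76 to 0.00, and of other neurons, -0.94 against -0.36 to 0.25. The part of RNA amount, transcript length and cell composition in the low values of B was not tested. All 4 calls remained past the threshold without B, with Malat1 at 2.19, Mirg at 1.19, Snhg14 at 1.21 and Rian at -0.46 (edgeR adjusted p from 4.3e-05 to 0.0262).

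Tau IP was next compared with EYFP IP, for which the series was designed. Of the 9 members, 0 passed, and 0 of 19472 genes did (edgeR, 0% called), while 2336 genes had an unadjusted p under 0.05. This 0 depended on the fit: without animal M edgeR called 128 of 19103 genes (0.670%), and with all 14 libraries in a single fit 202 of 20495 (0.986%), with 0 members in either. DESeq2 called 411 genes (2.11%) and none of the 5 members to which it gave an adjusted p, and limma voom called 0 genes. The median log2 fold change of the members was -0.36, beside -0.08 over all genes tested, and 7 of the 9 were lower in tau. The tau and EYFP libraries did not overlap for 2 of the 9 members, Mirg and Miat, as for 15.6% of all genes tested.

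Mirg had 8.08, 7.09, 8.21 and 5.09 CPM in the tau IP libraries of B, C, L and M. In the EYFP IP libraries of H, I and K it had 4.64, 5.05 and 3.11 CPM. All tau values were thus above all EYFP values, that of M by little, and the log2 fold change was 0.86 (SE 0.29, unadjusted edgeR p 0.0150, adjusted p 0.322). The adjusted p ran from 0.150 to 0.636 over the alternatives. Miat had 1.66, 18.1, 21.5 and 21.7 CPM in the tau IP libraries of B, C, L and M and 45.8, 25.6 and 27.0 CPM in the EYFP IP libraries of H, I and K. All tau values were below all EYFP values, with B an order of magnitude below the other tau libraries, and the log2 fold change was -0.99 (SE 0.61, edgeR adjusted p 0.546). Without B it was -0.61 (SE 0.24, edgeR adjusted p 0.431). Malat1 had 168, 631, 379 and 256 CPM in tau IP and 529, 469 and 233 CPM in EYFP IP, so that the groups overlapped. Its log2 fold change was -0.10 (SE 0.40, edgeR adjusted p 0.940), and it had the other sign without B (0.12), without H (0.09) or without M (0.04).

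The other members ran from -0.60 (Snhg11, SE 0.32, edgeR adjusted p 0.482) to 0.56 (Kcnq1ot1, SE 0.48, edgeR adjusted p 0.669), with overlap between the groups, and without B Snhg11 had -0.38 (SE 0.21, edgeR adjusted p 0.600). The cell type markers moved between the same libraries. The 12 noradrenergic markers had a median log2 fold change of 2.69 in tau IP, while the medians of the other neuron, astrocyte, oligodendrocyte, microglia and vascular lists lay between -0.55 and -0.38, and none of these genes passed. The summed level of the oligodendrocyte markers was 3758 to 10733 CPM in tau IP and 9177 to 13579 CPM in EYFP IP. The part of this shift in the values of Mirg and Miat was not tested.

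In pre-IP, the background for that comparison, none of the members passed either. Of 19197 genes, 0 were called by edgeR (0%), DESeq2 and limma voom, with 545 at an unadjusted p under 0.05 in edgeR. The members had log2 fold changes from -0.59 (Miat, SE 0.27, edgeR adjusted p 0.9998) to 0.14 (Kcnq1ot1, SE 0.20, edgeR adjusted p 0.9998), with a median of -0.12 beside -0.00 over all genes, and the groups overlapped for all 9, where 3.12% of all genes did not overlap. Mirg, higher in tau IP, had -0.36 (SE 0.31) in pre-IP, where it had 2.76, 1.71, 2.21 and 2.08 CPM in the tau libraries and 4.49, 1.58 and 2.55 CPM in the EYFP libraries. The EYFP library of animal H had the highest pre-IP level of 7 members, Meg3, Rian, Mirg, Miat, Neat1, Snhg11 and Snhg14. Without H the pre-IP fold changes of Meg3, Rian, Mirg, Snhg11 and Snhg14 changed sign, to between 0.05 and 0.21.

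The difference between tau and EYFP animals in the IP over pre-IP change was tested as an interaction over all 14 libraries. Of 20495 genes, 0 passed in edgeR (0%) and in limma voom and 52 (0.254%) in DESeq2, with 1223 at an unadjusted p under 0.05 in edgeR. Without animal M edgeR called 56 of 20231 genes (0.277%). No member passed in any of these fits. Mirg had the lowest p, with an interaction term of 1.22 (SE 0.45, unadjusted edgeR p 0.0154, adjusted p 0.746), from a mean log2 IP over pre-IP ratio of 1.68 ± 0.34 (SD, n = 4) in tau animals and 0.66 ± 0.87 (SD, n = 3) in EYFP animals. That Mirg and Rian passed in the tau animals alone and not in the EYFP animals alone is therefore not shown to be a difference between them. For Malat1 the interaction was -0.13 (SE 0.51, edgeR adjusted p 0.980) and for Snhg14 -0.22 (SE 0.45, edgeR adjusted p 0.954).

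**Figure D3:**
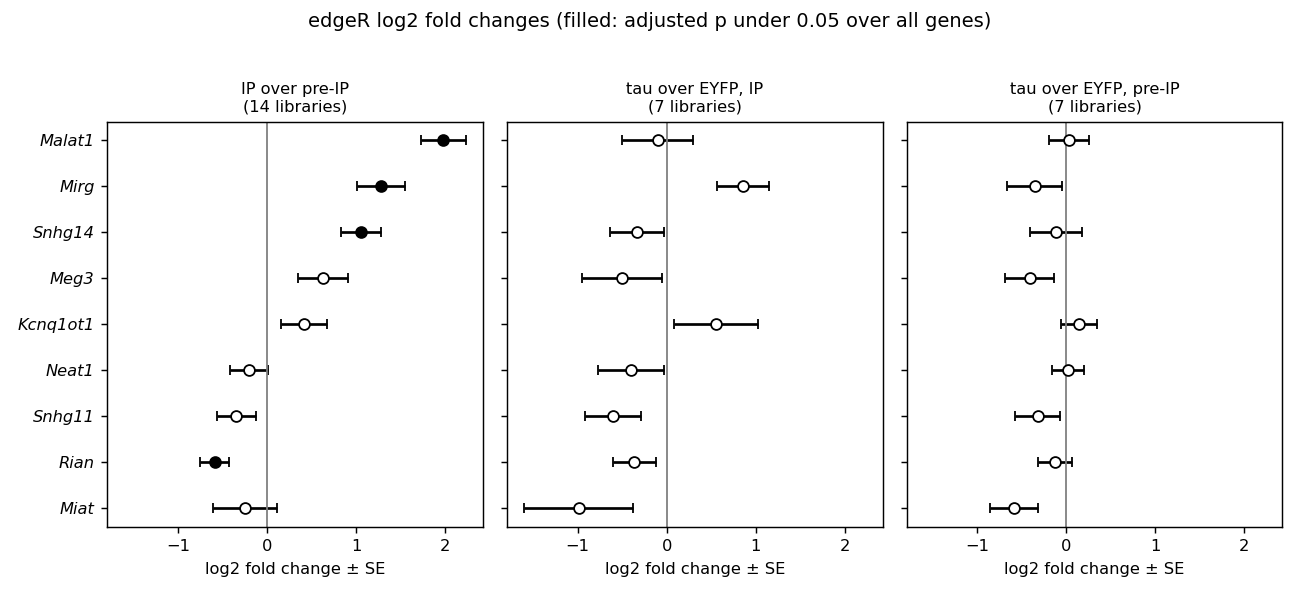
edgeR log2 fold changes of the 9 genes with their standard errors, for IP over pre-IP, for tau over EYFP in IP and for tau over EYFP in pre-IP. Filled points have an adjusted p under 0.05 over all genes: Malat1, Mirg, Snhg14 and Rian in the first panel, and none in the others.

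The members were then set beside other long noncoding genes in the IP against pre-IP comparison. Of 2129 long noncoding genes tested, 169 were called higher and 59 lower in IP, with a median log2 fold change of 0.04, and of 15419 protein-coding genes 2700 were called higher and 2688 lower, with a median of -0.03. Only 7 of the 2129 long noncoding genes had a larger rise than Malat1, and 0 of the 194 with 5000 exonic bases or more. Among the 143 long noncoding genes with a mean of at least 10 CPM, 34 rose and 22 fell, where 16.3% of all genes tested rose and 14.7% fell. Low counts weigh on those shares: in the fit limited to genes with a mean of at least 50 counts, 20.6% rose and 18.5% fell. Malat1 ranked second of these by its rise, after 5033406O09Rik, which rose by 2.34 (SE 0.63, edgeR adjusted p 0.00971) and is named here after its value was seen.

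Of 26 tested genes in a list of other long noncoding RNAs studied in brain or nucleus, 5 rose and 1 fell. Over all genes tested, 16.3% rose and 14.7% fell. The 5 were Cdr1os (1.28, SE 0.21), the transcript from the strand opposite to Cdr1, Bc1 (1.12, SE 0.29), a cytoplasmic RNA of dendrites, A330008L17Rik (1.01, SE 0.32), Oip5os1 (0.50, SE 0.15) and Mir100hg (0.33, SE 0.12). Peg13, an imprinted transcript of brain, fell by 0.94 (SE 0.09, edgeR adjusted p 2.6e-05) and was at 286 to 402 CPM in IP and 619 to 789 CPM in pre-IP. Firre, a nuclear RNA from the X chromosome, had -0.78 (SE 0.36, edgeR adjusted p 0.110), Tug1 had 0.32 (SE 0.17, edgeR adjusted p 0.153) and Norad, a cytoplasmic RNA, had -0.38 (SE 0.16, edgeR adjusted p 0.0789).

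Another group were 13 other host transcripts of snoRNAs. Of these, 7 rose and 0 fell, where 16.3% of all genes tested rose and 14.7% fell, with a median log2 fold change of 0.54. Gas5 rose by 0.81 (SE 0.14, edgeR adjusted p 0.000602), from a mean of 148 CPM in pre-IP to 252 CPM in IP, and Epb41l4aos by 0.93 (SE 0.16, edgeR adjusted p 0.000541), without overlap between fractions. Of the snoRNA hosts among the 9, Snhg14 rose, Rian fell and Snhg11 did not pass. Protein-coding genes with under 2000 exonic bases had 577 calls higher and 42 lower among 2150 tested. The part of transcript length in the snoRNA host values was not tested.

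Messenger RNAs for the proteins of the bodies that Malat1 and Neat1 belong to were counted as well, against the same 16.3% of all genes higher and 14.7% lower. Of 12 tested speckle proteins, 5 rose (Sf3b1, Son, Pnn, Srrm2 and Srrm1) and 1 fell (Sf1), with a median of 0.39. Sf3b1, a subunit of the spliceosome, rose most, by 0.91 (SE 0.15, edgeR adjusted p 0.000459), from 33.7 to 63.2 CPM in pre-IP to 67.1 to 133 CPM in IP. Of 10 paraspeckle proteins, 4 rose and 2 fell, with a median of 0.14. Sfpq, a core paraspeckle protein, rose by 1.00 (SE 0.22, edgeR adjusted p 0.00247), Tardbp by 0.71 (SE 0.16), Pspc1 by 0.52 (SE 0.15) and Hnrnph3 by 0.33 (SE 0.11), whereas Rbm14 fell by 0.88 (SE 0.20) and Ewsr1 by 0.40 (SE 0.13).

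**Figure D4:**
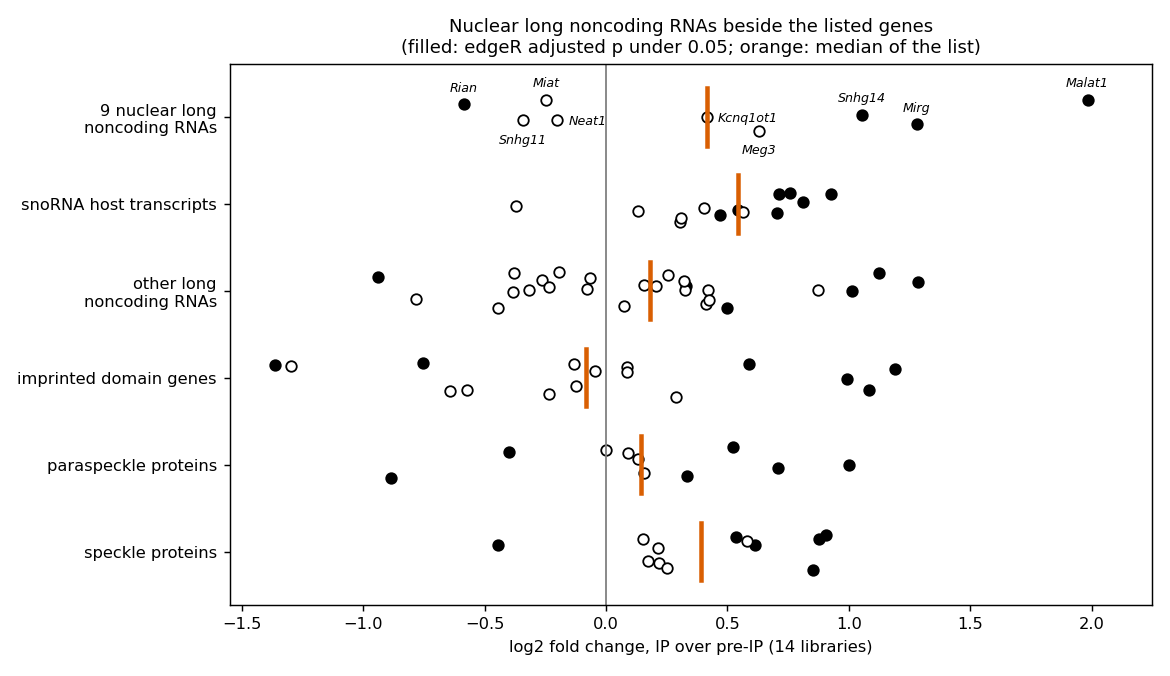
Log2 fold change of IP over pre-IP for the 9 genes and for the genes of the snoRNA host, other long noncoding RNA, imprinted domain, paraspeckle and speckle lists. The cell type marker lists are not drawn. Each point is a gene, filled where the edgeR adjusted p is under 0.05, orange bars are list medians and the vertical position within a row has no meaning. Malat1, at 1.98, lies furthest to the right of the genes drawn.

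Across the 14 libraries the members fell into patterns that are given here as a description, since the points share animals, fractions and depth. Malat1 and Snhg14 varied together (Pearson r = 0.887 of log2 CPM, n = 14 libraries), and so did Neat1 and Miat (r = 0.929) and Miat and Snhg11 (r = 0.894). The IP of animal B was the lowest library for Miat, Neat1 and Snhg11, at 1.66, 38.3 and 80.3 CPM. The next lowest libraries had 16.0, 96.7 and 187 CPM. How far this library alone sets these correlations, and those with the similar genes named below, was not tested. Malat1 and its neighbour Neat1 had r = -0.089. Within the Dlk1-Dio3 domain, Meg3 and Rian had r = 0.454, Meg3 and Mirg 0.288 and Rian and Mirg -0.551. Among 18791 other genes, the 3 most like Malat1 were Rsf1 (r = 0.984), a chromatin remodelling factor, Pcdh17 (0.980), a protocadherin, and Ube3a (0.979), all protein-coding. Those most like Snhg14 were Smg1 (0.974), a kinase of nonsense-mediated decay, Ubn2 (0.966) and Purb (0.963). Among those most like Rian were Hlf (0.966) and Zfp106 (0.958), and those most like Meg3 were Zkscan2 (0.957), Zcchc14 (0.956) and Foxo3 (0.949). For Neat1 they were Gm44065 (0.963), Spx (0.961) and Ubap1l (0.956), for Miat Col11a1 (0.973), Gm20342 (0.97) and Ict1os (0.963), and for Snhg11 Zc3h7b (0.965), Tulp4 (0.954) and Safb2 (0.953). Mirg, with Ovgp1 (0.913), Gm15672 (0.909) and 2310033P09Rik (0.895), and Kcnq1ot1, with Neurod4 (0.885), Gpr65 (0.867) and Tasl (0.828), had less similar genes.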

How the data were processed

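The authors deposited raw counts of reads for each gene in each library, with a gene table and a sample sheet that gives, per the file headers, RNA concentration, the percent GC of the reads and the RNA integrity number, a score. Per the submitters' processing notes, FastQC, Trim Galore, STAR and featureCounts were used with GRCm38 and mm10; their settings, and how strand and multiply mapped reads were treated, are not given in the sources used here. Per the labels' protocols, polyadenylated RNA was amplified with a SMART-Seq kit and made into libraries with Nextera XT. Symbols were taken from the authors' gene table, or from GENCODE M21 for 3755 genes; starts and ends were equal for 50973 of 50973 shared identifiers.

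CPM used library totals. Genes were tested with edgeR 4.0.16 (R 4.3.3, quasi-likelihood F test; treatment as a term in IP against pre-IP) with filterByExpr, TMM scaling and Benjamini-Hochberg adjustment over all genes tested, at 0.05; the SE is the log2 fold change over the square root of F. On simulated counts with 200 genes changed by 2 on the log2 scale, 96% were recovered for IP against pre-IP over 18388 genes, 84.5% for tau IP over 18563, 82.5% for tau pre-IP over 18554 and 67.5% for the interaction over 18783. In that order, 3.03%, 9.14%, 2.94% and 4.26% of the calls were false. The simulated libraries were independent, with the same spread per gene in both fractions and no animal effect. The recovered shares are therefore not the sensitivity in the real data, where Dbh, at 4.36, did not pass in tau IP (edgeR adjusted p 0.318). The letter pairs the fractions of an animal; their deviations from group means correlated at 0.15 to 0.404 in all 7 animals. No pair of libraries within a group agreed within sampling noise.

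All 9 members are reported, with the 3 genes most correlated to each (1 of those for Rian is not reported here) and, per list, the non-overlapping gene past the threshold with the largest change in each direction; further list genes were named after their values were seen. The members and lists were chosen with earlier results of these data known. Alternatives were other scalings, filters and covariates, DESeq2 1.42.0, limma 3.58.1 voom, leaving out animals, and the animal as a block; leaving out B and I together was added after seeing the data.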

Additional observations from a re-analysis of the deposited data

Results flagged for a closer look

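In groups of 4 animals, a value was marked where the gap between the extreme animal and the nearest other was large against the range of the group. Over 27 such groups, 5 values were marked, where chance gives about 1 in 20, or 1.35, and all 5 came from the IP of tau animal B. They were its log2 IP over pre-IP ratio of Neat1 (-1.80), of Meg3 (-1.39), of Miat (-3.25) and of Kcnq1ot1 (-1.02), and its Rian level of 30.4 CPM in IP. This library also had the lowest RNA concentration and the fewest genes with a count, and their part in these values was not tested.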

How the results depend on the processing

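For IP against pre-IP, 4 members were called, also with the animal as a replicate block (4), and 4 to 5 with an animal left out; the EYFP animals alone gave 1. In the block fit the edgeR adjusted p was 7.73e-05 for Malat1, 0.00355 for Mirg, 0.00124 for Snhg14 and 0.0107 for Rian, and the block changed no call. For tau IP against EYFP IP, tau pre-IP against EYFP pre-IP and the interaction, 0 members were called under every alternative that was run. Meg3 was called in IP with limma voom (0.69, adjusted p 0.0262). Of the recomputed log2 fold changes, named genes of the lists included, 814 kept direction and side of the threshold, 7 newly passed, 14 no longer passed and 31 changed sign, none of these called. The changes of sign were Neat1 in IP against pre-IP with EYFP animals only (0.0377). In tau IP against EYFP IP, Malat1 changed with limma voom (0.20), with the library-number range as covariate (0.0606) and with an animal left out (-0.50 to 0.12). In tau pre-IP against EYFP pre-IP, Malat1 changed with limma voom (-0.0271). Neat1 changed there with library totals (-0.0148), limma voom (-0.0479) and the library-number range (-0.0405), and Snhg14 with the library-number range (0.10). With an animal left out, the pre-IP values ran from -0.16 to 0.16 for Malat1, -0.0833 to 0.20 for Neat1, -0.64 to 0.17 for Meg3, -0.32 to 0.10 for Rian, -0.64 to 0.0491 for Mirg, -0.54 to 0.21 for Snhg11 and -0.44 to 0.13 for Snhg14. In the interaction, limma voom gave 0.21 for Malat1, 0.22 for Meg3 and 0.0592 for Snhg14. With an animal left out, the interaction ran from -0.50 to 0.24 for Malat1, -0.44 to 0.17 for Meg3 and -0.41 to 0.0362 for Snhg14. Over all genes, IP against pre-IP gave 5828 calls, 1218 with the EYFP animals and 3916 with the tau animals only. In tau IP against EYFP IP edgeR gave 0 calls, but 128 without animal M, 202 with all 14 libraries in a single fit and 113 with no filter on low counts, and DESeq2 gave 411. In the interaction edgeR gave 0, but 56 without M and 67 with no filter, and DESeq2 gave 52. In tau pre-IP against EYFP pre-IP edgeR gave 0, but 44 with no filter and 1 without B or without K. The cause was not tested.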
